A study of Homo sapiens with 6 samples.

Results

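The entries described here are the internal regions and long terminal repeats (LTRs) of the HERV-K groups other than HML-2 and the MER11 groups. They were chosen by name alone from a table of repeat families: the internal regions HERVK3, HERVK9, HERVK13, HERVK14, HERVK14C and HERVK22, and the LTRs named LTR3, LTR13, LTR14, LTR22 and MER9 with their subfamilies. The rule found 30 of 15641 entries, of which 6 are internal regions and 24 are LTRs. RNA was sequenced from the chromatin fraction of the human embryonic stem cell line H9, an established line, in 3 libraries labelled naive and 3 labelled primed. Naive cells resemble the preimplantation embryo and primed cells a later stage, and RSeT is a commercial medium for holding cells in a naive state. The growth protocol in the labels is the RSeT one for every library, primed ones included, and the states are told apart by the treatment label alone. No genetic change or drug is listed for either group. Whether each library is a separate culture is not stated, so the spread behind the p-values may be technical.

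HERV-K is the family of human endogenous retroviruses related to the mouse mammary tumour virus, and its groups carry the name HML (human MMTV-like). A complete provirus has an internal region, which once held the gag, pro, pol and env genes, between a pair of LTRs that carry the promoter and the polyadenylation signal. Recombination between the LTRs leaves a solo LTR, the commonest form in the genome, so LTR reads and internal reads need not come from the same loci. HML-2, the youngest group, is known for transcription in human pluripotent cells and early embryos, while the groups described here are older. By their names the entries fall into HML-1 (HERVK14 with LTR14, LTR14A and LTR14B), HML-3 (HERVK9 with MER9), HML-4 (HERVK13 with LTR13), HML-5 (HERVK22 with LTR22), HML-6 (HERVK3 with LTR3) and HML-9 (HERVK14C with LTR14C). LTR14 is also known as the LTR of HERVKC4, so its place in HML-1 is by name only.

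Total counts ranged from 7192242 to 17791046 in 5 libraries and were 118793 in primed library 2. Values in CPM below are counts scaled to the library total with TMM factors, which correct for a few very abundant repeats. Alpha satellite took between 25.3% and 42.9% of counts in naive and at most 0.625% in primed libraries, and ribosomal RNA between 0.169% and 17.7%. The 30 entries summed to between 15364 and 35961 counts in 5 libraries and to 343 in primed library 2, where 14 of them had fewer than 3 counts and 3 (LTR14A, MER9B and LTR3) had 0. A limit of 3 counts in that library corresponds to 16.8 CPM. The table has no genes, so gene markers of the cell states were not analysed here. Among repeats known for transcription in pluripotent cells, HERVH-int had 31271 ± 9804 CPM in naive libraries (SD, n = 3) and 14217 ± 2159 CPM in the primed ones. HERVH-int and LTR7, linked to both states, were called higher in naive libraries (log2 1.14, edgeR adjusted p = 0.0106, and 0.87, 0.0156). Of the repeats linked to naive or earlier states, HERVK-int and LTR5_Hs passed the test, while LTR7Y (log2 0.56, edgeR adjusted p = 0.0686) and SVA_D (0.06, 0.837) did not. The counting of reads that map to several copies is not stated, so near-identical subfamilies may share reads.

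The comparison of naive with primed cells called 1 of the 30 entries, the HML-5 internal region HERVK22-int, which was 1.63-fold higher in naive libraries. No entry was called lower, and 29 did not pass the test (edgeR quasi-likelihood test, Benjamini-Hochberg adjusted over all repeats at 0.05; DESeq2 also called 1). An unadjusted p under 0.05 was found for 5 entries (16.7%, against 31.5% of named repeats and 31.6% of all repeats). A single call in 30 is 3.33%, against 4.94% of all 3219 repeats tested that were called higher and 10.4% of the 1265 named repeats (those that are not simple repeats). For lower calls the background was 7.77% of all repeats and 1.19% of named repeats. All 30 entries passed the filter on low counts, 22 (73.3%, against 77.1% of named repeats) had a log2 change above 0, and their median was 0.25, beside 0.21 for named repeats and -0.0046 for all repeats tested. The changes ran from -0.55 for LTR22C0 to 0.77 for LTR22B2. For 20 of the 30 entries the 95% interval of the change lay within a doubling in either direction. The same held for 974 of the 1265 named repeats and 1354 of all 3219 repeats tested.

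**Figure D1:**
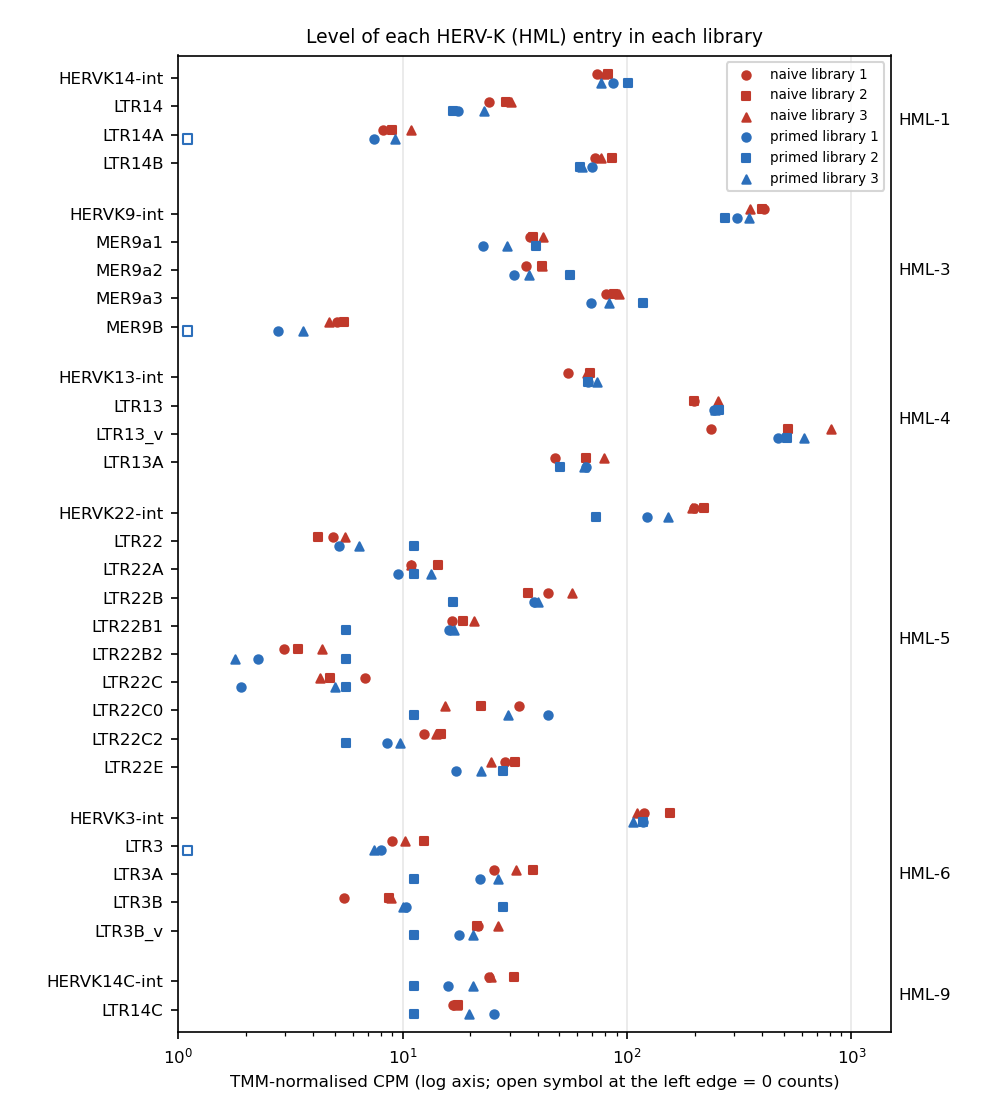
TMM-normalised CPM (horizontal log axis) of each of the 30 entries in each library, naive in red and primed in blue, with the library number given by the symbol and the 3 entries at 0 counts drawn as open symbols at the left edge. HERVK22-int stands out with 3 naive values near 205 and all primed values below them, while LTR13_v spreads from 237 to 813 among the naive libraries alone.

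The naive values all lay above the primed values for 9 entries (30%, against 36.0% of named repeats and 19.4% of all repeats), and all below them for 1 entry, LTR3B (3.33%, against 3.24% and 11.0%). The 9 were HERVK22-int and LTR22C2 of HML-5, HERVK9-int and MER9B of HML-3, LTR14 and LTR14B of HML-1, LTR3 and LTR3B_v of HML-6, and HERVK14C-int of HML-9. These shares are near the background of named repeats. In primed library 2, MER9B and LTR3 had 0 counts, LTR22C2 1, LTR3B_v and HERVK14C-int 2 each, and LTR14 3. For these entries the separation from that library rests on very few counts. HERVK22-int, LTR14B and HERVK9-int had 13, 11 and 49 counts there.

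The internal region of HML-5 carried the single call. HERVK22-int was at 199, 221 and 195 CPM in the naive libraries, and at 122, 72.7 and 152 CPM in the primed ones, each in the order 1 to 3. The naive libraries lay close together and above every primed library, and the primed ones were spread more widely. The primed library 2 value rests on 13 counts. In bulk RNA a change in the share of transcribing cells and a change per cell cannot be told apart. The means were 205 ± 14.2 and 116 ± 40.1 CPM (SD, n = 3), a log2 change of 0.70 ± 0.18 (SE; edgeR adjusted p = 0.0324). The call was lost without primed library 1 (0.67, edgeR adjusted p = 0.199), without naive library 2 (0.69, 0.0647) and with simple repeats left out (0.46, 0.103). When all libraries were thinned to the depth of primed library 2 it was also lost, at a change as large (0.71, 0.351). Higher calls over all repeats fell too, from 159 of 3219 tested to 8 of 3472 without primed library 1. They were 56 of 3547 without naive library 2, 31 of 1265 without simple repeats and 2 of 715 when thinned. With the library total as the only scaling the HERVK22-int change was 0.09 (edgeR adjusted p = 0.793).

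None of the 9 LTR22 subfamilies, the LTRs of HML-5, passed the test (0 called by edgeR, 1 with an unadjusted p under 0.05). Their log2 changes had a median of 0.30, and 7 of 9 were above 0. LTR22B, the subfamily with the most counts, was at 44.4, 36.3 and 56.7 CPM in naive and 38.5, 16.8 and 40.2 in primed libraries (0.30 ± 0.22, SE; edgeR adjusted p = 0.391), with overlapping groups. LTR22C2 was at 12.4, 14.9 and 14.1 CPM in naive and 8.48, 5.59 and 9.76 in primed libraries (0.62 ± 0.26; edgeR adjusted p = 0.122). Its groups did not overlap, but primed library 2 had 1 count. LTR22C0 lay the other way, with 33.1, 22.4 and 15.4 CPM in naive and 44.5, 11.2 and 29.4 in primed libraries (-0.55 ± 0.32; edgeR adjusted p = 0.261). The groups overlapped, and primed library 2 had 2 counts. The largest estimate of the subfamilies, 0.77 for LTR22B2, came from 26 to 62 counts in the naive and 1 to 18 counts in the primed libraries, and its 95% interval ran from -0.08 to 1.62. LTR22 (-0.30), LTR22A (0.08), LTR22B1 (0.24), LTR22C (0.56) and LTR22E (0.46) had edgeR adjusted p-values between 0.167 and 0.865. The LTR22C value rested on single libraries, at 0.054 without primed library 1 and 1.34 without primed library 3.

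**Figure D2:**
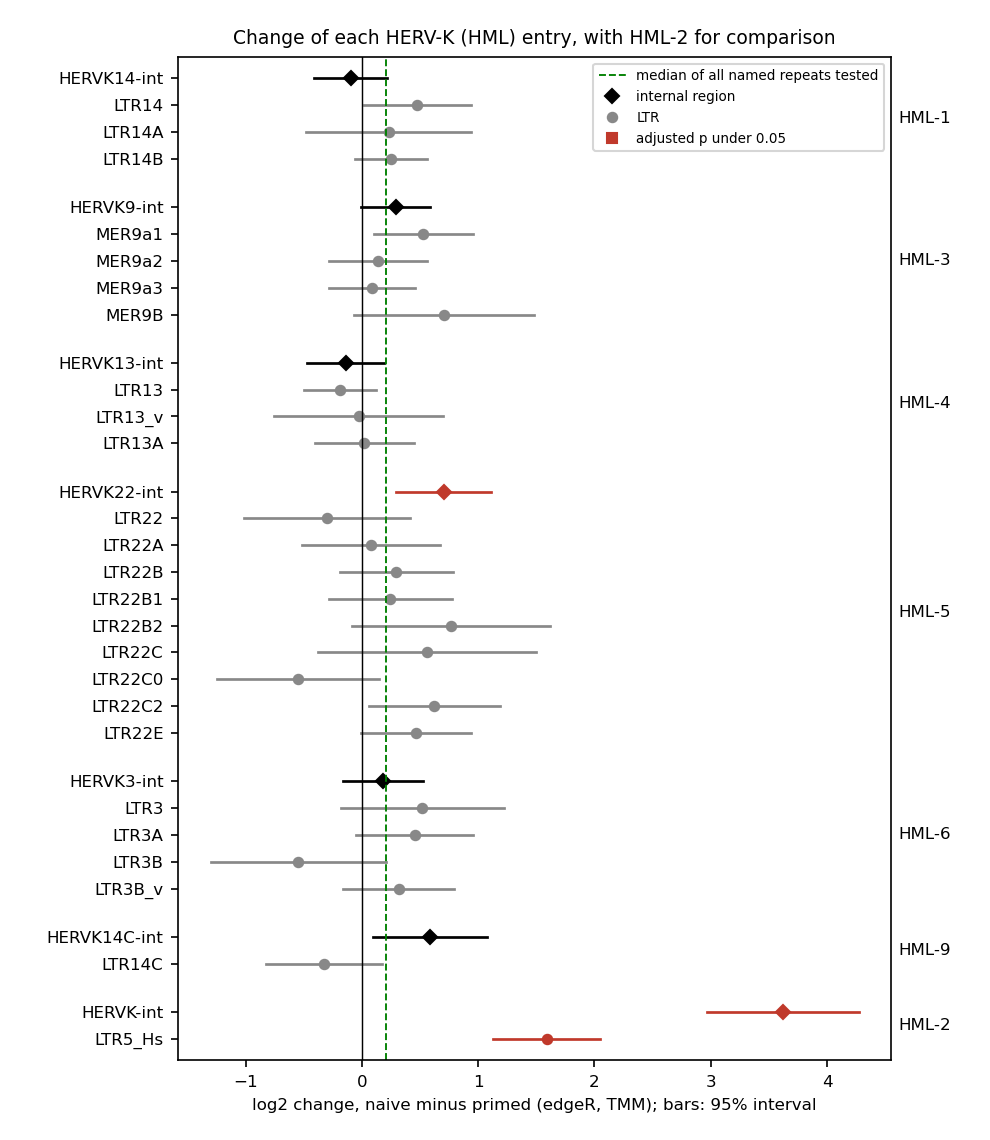
Log2 change of naive minus primed (horizontal axis) with its 95% interval for each of the 30 entries, internal regions as diamonds and LTRs as circles, and for HERVK-int and LTR5_Hs of HML-2; red marks an adjusted p under 0.05 and the dashed line the median of named repeats. Most intervals of the 30 entries include that median of 0.21, that of HERVK22-int (0.70) lies above it, those of HERVK13-int, LTR13, LTR22C0, LTR3B and LTR14C lie below it, and HERVK-int at 3.62 lies far outside the range of the 30.

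HML-3, the group of HERVK9 and the MER9 LTRs, had 5 fitted changes above 0 and 0 calls (1 entry with an unadjusted p under 0.05). For MER9a2 and MER9a3 the mean CPM went the other way, at 39.6 and 86.5 in naive against 41.4 and 89.9 in primed libraries, with primed library 2 the highest of the 6 in both. HERVK9-int was at 406, 397 and 351 CPM in naive and 308, 274 and 349 in primed libraries. The groups were separated by the narrow gap between naive library 3 and primed library 3. The log2 change was 0.29 ± 0.14 (SE; edgeR adjusted p = 0.167), with a 95% interval from -0.0064 to 0.59. Among its LTRs, MER9a1 was at 37.1, 37.9 and 42.3 CPM in naive and 22.9, 39.2 and 29.3 in primed libraries (0.53 ± 0.19; edgeR adjusted p = 0.0938). Primed library 2, with 7 counts, fell among the naive values. MER9a3, the LTR of this group with the most counts, was at 80.3, 87.5 and 91.8 CPM in naive and 69.3, 117 and 82.9 in primed libraries (0.08 ± 0.17; edgeR adjusted p = 0.758). MER9a2 gave 0.14 (edgeR adjusted p = 0.656). MER9B gave 0.71 (0.194) and had 45 to 67 counts in naive libraries and 22, 0 and 36 in the primed ones.

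With TMM factors HML-4, made up of HERVK13 and the LTR13 subfamilies, showed the smallest changes of the groups with more than 2 entries. The 4 log2 changes lay between -0.19 and 0.02 and their unadjusted p-values all exceeded the threshold (0 called). HERVK13-int was at 54.8, 68.6 and 66.6 CPM in naive and 66.7, 67.1 and 73.6 in primed libraries (-0.14 ± 0.15, SE; edgeR adjusted p = 0.560). LTR13 was at 198, 198 and 254 CPM in naive and 243, 257 and 245 in primed libraries (-0.19 ± 0.14; edgeR adjusted p = 0.386). In both entries the naive and primed values overlapped. For these 4 entries the 95% intervals with TMM factors excluded a doubling in either direction. Those of HERVK13-int and LTR13 lay below the named-repeat median of 0.21. With the library total as the only scaling, 3 of the entries were called lower. They were HERVK13-int (-0.77, edgeR adjusted p = 0.0204), LTR13 (-0.85, 0.00817) and LTR13_v (-0.72, 0.0254).

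LTR13_v, the entry with the most counts among the 30, varied more between naive libraries than between the states. It was at 237, 522 and 813 CPM in naive and 469, 515 and 616 in primed libraries (-0.03 ± 0.33, SE; edgeR adjusted p = 0.969). Naive library 1 was the lowest of the 6 and naive library 3 the highest. The same 2 libraries were the extremes in LTR13_v counts per LTR13 count, a ratio that no library scaling affects, at 1.20, 2.64 and 3.20 in naive and 1.93, 2.0 and 2.51 in primed libraries. LTR13A was likewise lowest in naive library 1 and highest in naive library 3, at 47.9, 65.5 and 78.8 CPM, and was at 65.7, 50.3 and 64.5 CPM in primed libraries (0.02 ± 0.19; edgeR adjusted p = 0.962). Its sign turned with RLE or upper-quartile factors and in other settings. Without naive library 1 the LTR13_v change was 0.35 (edgeR adjusted p = 0.222).

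HML-1 had 4 entries and 0 calls, with 1 unadjusted p under 0.05, that of LTR14, which is placed here by name only. HERVK14-int was at 73.6, 82.0 and 79.3 CPM in naive and 86.1, 101 and 76.2 in primed libraries (-0.10 ± 0.14, SE; edgeR adjusted p = 0.665), with overlapping groups. The LTRs placed with it had estimates above 0. LTR14B was at 72.0, 85.6 and 76.7 CPM in naive and 69.7, 61.5 and 62.7 in primed libraries (0.25 ± 0.14; edgeR adjusted p = 0.250). LTR14 was at 24.3, 28.9 and 30.4 CPM in naive and 17.6, 16.8 and 23.0 in primed libraries (0.48 ± 0.21; edgeR adjusted p = 0.145). In LTR14B and LTR14 every naive library lay above every primed library. LTR14A gave 0.23 (edgeR adjusted p = 0.659) with 0 counts in primed library 2.

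HML-6, the group of HERVK3 and LTR3, likewise had 0 calls among 5 entries, and 0 had an unadjusted p under 0.05. HERVK3-int was at 119, 155 and 110 CPM in naive and 118, 117 and 106 in primed libraries (0.18 ± 0.16, SE; edgeR adjusted p = 0.469), so only naive library 2 stood above the rest. LTR3A, its LTR with the most counts, was at 25.5, 38.3 and 32.1 CPM in naive and 22.1, 11.2 and 26.5 in primed libraries (0.45 ± 0.23; edgeR adjusted p = 0.201). LTR3B was at 5.46, 8.69 and 8.84 CPM in naive and 10.4, 28.0 and 10.1 in primed libraries (-0.55 ± 0.34; edgeR adjusted p = 0.297). It was the single entry with every primed library above every naive library, and its highest value rests on 5 counts in primed library 2. LTR3 (0.52, edgeR adjusted p = 0.286) and LTR3B_v (0.32, 0.346) did not pass.

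In HML-9 the internal region and the LTR had opposite signs, and neither passed. HERVK14C-int was at 24.3, 31.4 and 24.8 CPM in naive and 15.9, 11.2 and 20.6 in primed libraries (0.59 ± 0.22, SE; edgeR adjusted p = 0.102), without overlap. LTR14C was at 16.7, 17.7 and 17.5 CPM in naive and 25.6, 11.2 and 19.7 in primed libraries (-0.33 ± 0.23; edgeR adjusted p = 0.348), with overlap. Primed library 2 held 2 counts of each.

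Whether an internal region and an LTR of its group changed unequally was tested with the ratio of their counts within a library, which does not depend on library scaling. Each internal region was set against the LTR entry with the most counts in its group, with 0.5 added to both counts. HERVK14C-int per LTR14C was 1.45, 1.77 and 1.42 in naive and 0.625, 1.0 and 1.05 in primed libraries, 1.78-fold higher in naive cells by the mean of log2 ratios. HERVK14-int per LTR14B was 1.02, 0.958 and 1.03 in naive and 1.24, 1.61 and 1.21 in primed libraries, 1.34-fold lower in naive cells. In these 2 pairs the states did not overlap and each gave p = 0.1, the lowest value open to an exact permutation test (two-sided) with 3 libraries a group (adjusted over 12 ratios, 0.15). The design therefore could not bring any of the ratios under 0.05. In primed library 2 HERVK14C-int and LTR14C had 2 counts each, and HERVK14-int and LTR14B had 18 and 11. When 1 library was left out, the log2 difference ranged from 0.59 to 0.96 for HERVK14C-int per LTR14C. It ranged from -0.49 to -0.29 for HERVK14-int per LTR14B. The other ratios overlapped: HERVK22-int per LTR22B differed by 0.34 on the log2 scale (exact permutation p = 0.3), HERVK9-int per MER9a3 by 0.34 (exact p = 0.4), HERVK3-int per LTR3A by -0.50 (exact p = 0.3) and HERVK13-int per LTR13_v by 0.04 (exact p = 1). Against the sum of all LTR22 entries HERVK22-int differed by 0.60 without overlap (exact permutation p = 0.1). The difference of HERVK9-int per MER9a3 was 0.04 without primed library 2, and the sign of HERVK13-int per LTR13_v turned without naive library 1 (-0.35). HERVK3-int per LTR3A differed by -0.20 without primed library 2, where LTR3A had 2 counts, and by -0.17 over the sum of LTR3 entries.

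**Figure D3:**
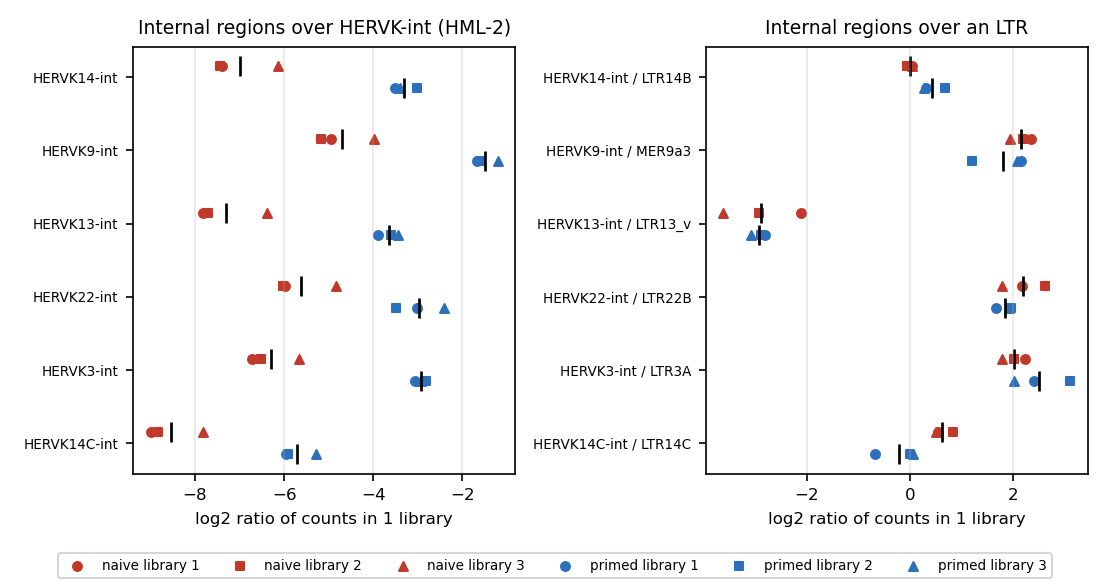
Log2 ratio of counts within each library (horizontal axis) for the 6 internal regions over HERVK-int on the left and over an LTR of their own group on the right, naive in red, primed in blue, with black ticks at the means. On the left all naive ratios lie below all primed ratios in each row, where the shared denominator HERVK-int is itself higher in naive libraries. On the right the states separate in the rows of HERVK14-int and HERVK14C-int.

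The HML-2 internal region HERVK-int, the best known of the HERV-K groups, rose by 3.62 ± 0.30 (log2, SE; edgeR adjusted p = 7.88e-05), and LTR5_Hs, its youngest LTR, by 1.59 ± 0.21 (0.00443). The difference from HERVK-int was tested for each of the 6 internal regions, again as a ratio within a library. HERVK22-int per HERVK-int was 0.0160, 0.0154 and 0.0349 in naive and 0.124, 0.0897 and 0.189 in primed libraries, 6.26-fold lower in naive cells. HERVK14-int per HERVK-int was 12.8-fold lower, with 0.00591, 0.00572 and 0.0142 in naive and 0.0873, 0.123 and 0.0949 in primed libraries. The ratio was lower by 7.14-fold for HERVK14C-int, 9.23-fold for HERVK9-int, 10.3-fold for HERVK3-int and 12.7-fold for HERVK13-int. In all 6 the states did not overlap, and each gave the smallest possible exact permutation p of 0.1 (adjusted 0.15). All 6 share the HERVK-int counts as denominator and are not independent of each other. HERVK-int itself was 12.3-fold higher in naive libraries without overlap, so any entry with a small change would separate in this ratio. The folds and p-values of these ratios therefore mainly restate the rise of HERVK-int. The list of other entries of the same retroviral class held 12 (HML-2 with LTR5, HERVK11 with MER11, and HERVKC4). Of these 5 rose, 1 fell and 6 did not pass by edgeR, with a median of 0.15. The 5 are 41.7%, against 4.94% of all repeats and 10.4% of named repeats called higher. For lower calls the background was 7.77% and 1.19%. The entry that fell, MER11B, had overlapping groups, at 302, 491 and 180 CPM in naive and 2166, 246 and 1064 in primed libraries. HERVK11-int, the internal region that goes with MER11 LTRs, was among those that rose (1.09 ± 0.26; edgeR adjusted p = 0.0247).

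The 30 entries held 0.168%, 0.143% and 0.215% of all counts in naive libraries and 0.214%, 0.289% and 0.270% in primed libraries. The 95% Wilson interval in primed library 2 was 0.260% to 0.321%, and such intervals cover counting error only. The means were 0.176% ± 0.0366 and 0.257% ± 0.0391 (SD, n = 3). With alpha satellite and ribosomal RNA left out of the total they were 0.284% ± 0.0428 and 0.286% ± 0.0225, a difference of -0.0019 points that is far smaller than the spread between libraries. These shares are a description and were not tested.

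The make-up of the 30 entries was compared without regard to the length or copy number of each repeat. HML-4 took 28.9%, 37.4% and 48.0% of their counts in naive and 43.4%, 46.4% and 45.8% in primed libraries, each in the order 1 to 3. LTR13_v alone took 12.7%, 22.8% and 32.2% in naive and 24.1%, 26.8% and 28.3% in primed libraries. The HML-5 share was 19.3%, 16.3% and 13.9% in naive and 13.7%, 9.04% and 13.6% in primed libraries. Naive library 3 was thus close to primed libraries 1 and 3. The HML-5 share averaged 16.5% ± 2.704 in naive cells and 12.1% ± 2.67 in primed cells (SD, n = 3). Its lowest share, 9.04% in primed library 2, has a 95% Wilson interval of 6.44% to 12.5%. HML-3 took 25.4% ± 4.65 and 23.6% ± 1.58, HML-6 9.16% ± 1.51 and 8.55% ± 0.631, HML-1 8.79% ± 0.894 and 8.83% ± 0.848, and HML-9 2.01% ± 0.291 and 1.72% ± 0.498. For each of these 4 groups the means differed by less than the SD of at least 1 state.

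**Figure D4:**
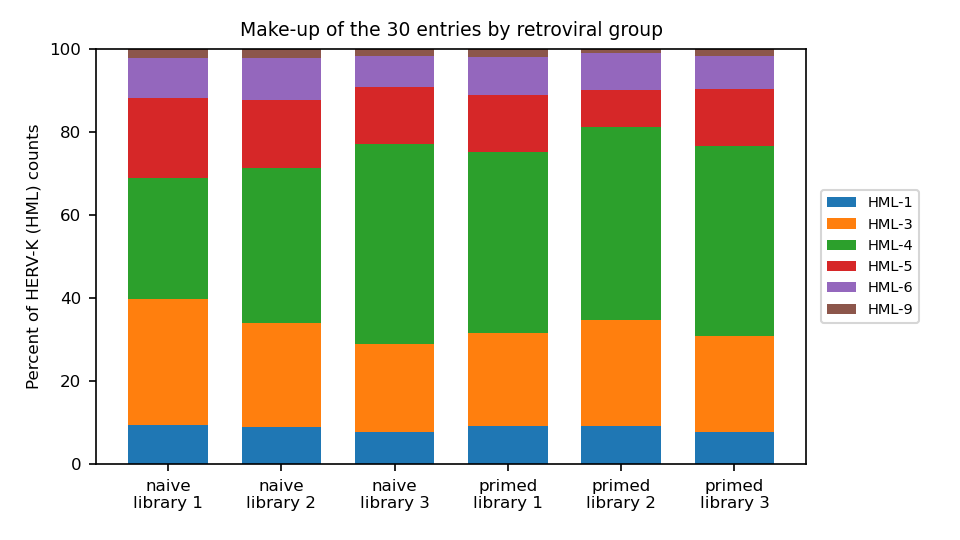
Percent of the counts of the 30 entries (vertical axis, stacked to 100) taken by each HML group in each library. The HML-4 band is 28.9% in naive library 1 and 48.0% in naive library 3, while in the primed libraries it lies between 43.4% and 46.4%.

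The sign of the group as a whole depended on the scaling. With the library total as the only scaling the median of all repeats tested moved from -0.0046 to -0.61, and the median of the 30 entries moved with it from 0.25 to -0.35. Relative to the median of all repeats the 30 entries stood at 0.25 with TMM factors and 0.26 with the library total. Relative to that of named repeats they stood at 0.04 and 0.07. With the library total edgeR called 0 entries higher (background 0.870%) and 7 lower, which is 23.3% against 32.6% of all repeats and 17.0% of named repeats under that scaling. They were HERVK14-int, HERVK13-int, LTR13, LTR13_v, LTR22C0, LTR3B and LTR14C, with log2 changes between -1.21 and -0.72. The 4 entries above 0 in that setting were HERVK22-int (0.09), MER9B (0.13), LTR22B2 (0.19) and LTR22C2 (0.03). With simple repeats left out, which brings the median of named repeats to -0.0086, the median of the 30 was 0.02 and 0 were called.

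**Figure D5:**
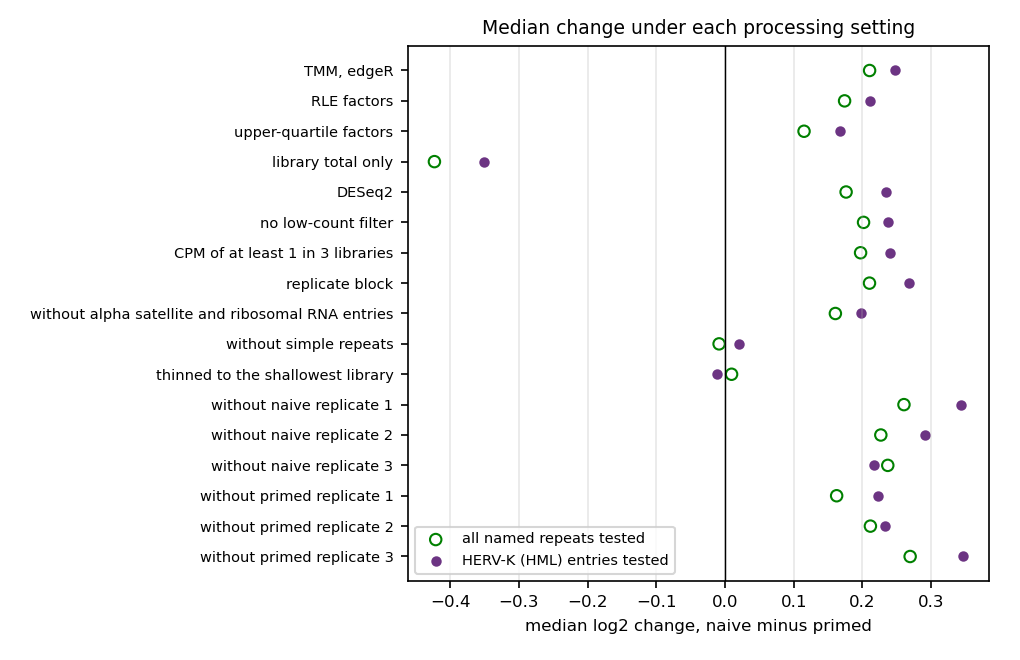
Median log2 change of naive minus primed (horizontal axis) for the HERV-K (HML) entries (filled) and for all named repeats (open) under each processing setting. The medians lie near each other in each setting, at -0.35 and -0.42 with the library total only and at 0.35 and 0.27 without primed library 3; the thinned setting holds 6 of the 30 entries.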

How the data were processed

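The table deposited by the authors gives a raw count for each repeat name in each library, in whole numbers with no sign of normalisation. Per the submitters' processing notes, the tools were Trimmomatic 0.39, STAR 2.7.8a, featureCounts and Subread 2.14.2. Per the labels' protocols, libraries were made with a directional kit. The genome build, repeat annotation, strand setting and treatment of multiply mapped reads are not stated in the labels or the file. Each entry sums all copies of a repeat, so positions and sequences were not analysed here.

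Columns were matched to samples by title and groups taken from the treatment label. All entries were fitted with edgeR 4.0.16 in R 4.3.3 (TMM, filterByExpr, quasi-likelihood F-test, Benjamini-Hochberg adjustment), and the SE is the log2 change divided by the square root of F. Ratios of counts within a library, with a pseudocount of 0.5, were compared by exact permutation in SciPy 1.17.1. DESeq2 1.42.0 and other factors, filters, entry sets, thinning, a replicate term and each library left out were alternatives. The fit was tested on simulated data for this comparison (3081 repeats tested). It called 45.7% of the 2-fold changes and 95.3% of the 4-fold ones, and 6.11% of its 131 calls were false. Simulated levels started equal in both groups, so these rates do not cover errors from the choice of scaling. The simulated spread followed its trend with abundance, so the rates also do not cover entries that vary more than others of like abundance. The entries, lists and alternatives were chosen with earlier results of these data known. Every entry is named; LTR13_v per LTR13 was chosen after its values were seen. Group names follow common usage and are not in the table. Figures were drawn with matplotlib 3.10.9.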

Additional observations from a re-analysis of the deposited data

How the results depend on the processing

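The single call of a higher entry, HERVK22-int, was kept in 11 of 16 alternatives; 0 entries were called higher with the library total only, with all libraries thinned to the shallowest (6 of 30 entries tested; HERVK22-int at 0.71, edgeR adjusted p = 0.351) and without simple repeats, and leaving out 1 library gave 0 or 1. Over all repeats 28 were called higher with the library total only, 2 when thinned and 31 without simple repeats, beside 159 in the main fit. With the library total only, 7 entries were called lower. The numbers do not pair the libraries by the labels; the same-numbered libraries deviated together with r of 0.15, 0.09 and 0.07, each library being most like its own number. With the replicate number as a block, 2 entries were called higher, HERVK22-int (0.73, edgeR adjusted p = 9.03e-05) and MER9a1 (0.54, 0.0406). Over all repeats this setting called 264 higher instead of 159. The difference in share became -0.0019 points without alpha satellite and ribosomal RNA. The log2 differences of the ratios moved by less than the larger of the SDs of the states in all 59 alternative values over an LTR and all 54 over HERVK-int, which is a wide tolerance: HERVK22-int per LTR22B ranged from 0.13 to 0.54 when 1 library was left out and was 0.60 over the sum of LTR22 entries, HERVK9-int per MER9a3 was 0.04 without primed library 2, HERVK13-int per LTR13_v ranged from -0.35 to 0.40, and HERVK13-int per HERVK-int was -4.12 without naive library 3. HERVK-int kept its call in all 16 alternatives and LTR5_Hs in 15.

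Signs turned among entries without a call; the cause was not tested beyond the scaling itself. With the library total only, log2 changes above 0 became -0.13 (LTR14), -0.34 (LTR14A), -0.37 (LTR14B), -0.37 (HERVK9-int), -0.10 (MER9a1), -0.52 (MER9a2), -0.60 (MER9a3), -0.59 (LTR13A), -0.54 (LTR22A), -0.25 (LTR22B), -0.33 (LTR22B1), -0.028 (LTR22C), -0.17 (LTR22E), -0.49 (HERVK3-int), -0.067 (LTR3), -0.16 (LTR3A), -0.26 (LTR3B_v) and -0.022 (HERVK14C-int). LTR13A became -0.017 with RLE factors, -0.064 with upper-quartile factors, -0.013 with DESeq2, -0.014 with the replicate block and -0.028 without alpha satellite and ribosomal RNA. MER9a3 became -0.0081 with upper-quartile factors, LTR22A -0.020 with the block and LTR14B -0.043 when thinned. Without simple repeats the values were -0.047 (MER9a2), -0.10 (MER9a3), -0.21 (LTR13A), -0.13 (LTR22A) and -0.040 (HERVK3-int). Leaving out 1 library, MER9a2 ranged from -0.018 to 0.24, MER9a3 from -0.10 to 0.20, LTR13_v from -0.46 to 0.35, LTR13A from -0.13 to 0.22, LTR22A from -0.13 to 0.32, LTR22C from 0.054 to 1.34 and HERVK3-int from 0.052 to 0.31. Depth limits primed library 2, where 14 entries had under 3 counts.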

Other observations

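HERVK22-int counts per HERVK9-int count, the internal regions of HML-5 and HML-3, gave 0.490, 0.557 and 0.555 for the naive libraries and 0.397, 0.265 and 0.436 for the primed ones. This pair was chosen after the values were seen and was not tested. LTR3B counts per LTR3A count were 0.214, 0.227 and 0.275 in naive and 0.469, 2.50 and 0.380 in primed libraries, where the value of 2.50 is 5 counts over 2. LTR3B already had every primed library above every naive library, and this unplanned ratio was not tested. LTR22C0 counts per LTR22C2 count were 2.67, 1.51 and 1.09 in naive and 5.25, 2.0 and 3.01 in primed libraries, also chosen after the values were seen. Across the 30 entries, which share libraries, the log2 change and the log10 of the summed count had a Pearson r of -0.20 and a Spearman rho of -0.27.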
